A study of Homo sapiens with 4 samples.

Results

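The translation initiation factors (eIFs) were examined as 52 protein-coding genes of the 62893 genes in a count table. They were chosen by name alone, as Ensembl genes whose symbol starts with EIF and a digit from 1 to 6, without the EIF2AK kinases, so that no measured value decided which genes belong. The family itself was chosen with earlier results of these data known. Counts came from T24, a human cell line established from a bladder carcinoma. T24 cells were given control siRNA (siControl, 2 libraries) or siRNA against NSUN2 (siNSUN2, 2 libraries), an RNA methyltransferase that places 5-methylcytosine on tRNAs and other RNAs, and poly(A) RNA was sequenced. The comparison asks how transcript levels differ between knockdown and control cells. The labels name no siRNA sequence, no time after transfection and no separate cultures, and all libraries come from 1 line, so each p-value reflects the spread among these 4 libraries alone, and that spread may be purely technical. Levels are scaled within each bulk library, so neither cell number nor a change in all RNA per cell can be read from them.

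Initiation begins when eIF2, carrying GTP and the initiator tRNA, joins the small ribosomal subunit together with eIF1, eIF1A, eIF3 and eIF5. The cap-binding factor eIF4E, the scaffold eIF4G and the helicase eIF4A then bring this complex to the 5′ end of an mRNA, where it scans to the start codon, and eIF5B joins the large subunit. Cells tune the process at eIF2, whose phosphorylated form blocks its exchange factor eIF2B, and at eIF4E, which 4E-binding proteins sequester. Some genes with an EIF symbol act elsewhere: eIF5A works mainly in elongation, eIF6 keeps the large subunit from joining too early, and eIF4A3 belongs to the exon junction complex.

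Transcripts of many translation factors begin with a cytosine followed by an unbroken run of pyrimidines, a feature through which mTORC1 and LARP1 govern their translation. These start sites are shown because the factor with the largest fall, EIF3M, is among them and because their presence does not depend on the counts. A start was listed in RefSeq (GRCh38.p14) for 44 of the 52 genes. Of these, 10 (22.7%) began at a C followed by at least 4 bases that are C or T, read as in the transcript. The share was 4.07% of 35116 listed starts and 7.43% of the coding genes tested. Each line gives 10 bases before the start and 20 bases from it, with the pyrimidine run in capitals.
EIF3M, chr11:32583821-32583850, plus strand: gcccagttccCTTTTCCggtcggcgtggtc
EIF3D, chr22:36529147-36529176, minus strand: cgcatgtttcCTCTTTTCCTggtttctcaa
EIF3F, chr11:7987327-7987356, plus strand: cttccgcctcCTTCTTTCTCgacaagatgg
EIF3K, chr19:38619178-38619207, plus strand: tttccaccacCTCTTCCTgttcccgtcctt
EIF2A, chr3:150546777-150546806, plus strand: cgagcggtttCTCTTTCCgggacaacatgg
EIF2D, chr1:206612446-206612475, minus strand: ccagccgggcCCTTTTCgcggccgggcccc
EIF2S3, chrX:24054946-24054975, plus strand: gatttccttcCTCTTTTggcaacatggcgg
EIF2S3B, chr12:10505880-10505909, plus strand: gactttcttcCTCTTTTggcaacatggcgg
EIF4A2, chr3:186783567-186783596, plus strand: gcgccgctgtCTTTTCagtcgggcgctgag
EIF4B, chr12:53006446-53006475, plus strand: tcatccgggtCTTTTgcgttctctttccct

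Library totals ran from 33633249 to 215936965 counts. NSUN2 itself (ENSG00000037474) stood at 281 and 284 CPM (TMM-adjusted counts scaled to a common library total) in the siControl libraries and at 29.6 and 30.1 CPM in the siNSUN2 libraries. Of 16 epithelial and urothelial markers, 6 (KRT7, KRT8, KRT18, PPARG, FOXA1 and UPK1B) were above 1 CPM in every library and 10, EPCAM, CDH1, KRT5 and GATA3 among them, were under 1 CPM in every library. Of 11 markers of blood, endothelial, fibroblast and muscle cells, 0 were above 1 CPM in every library and 7 were under 1 CPM in every library, with PECAM1 at 0. The others, CDH5, VWF, HBB and COL1A1, reached 1.87, 8.73, 2.66 and 3.30 CPM, each in siNSUN2 2. The summed level of those 11 was 1.51 and 2.99 CPM in siControl and 5.55 and 17.1 CPM in siNSUN2, and its part in the results was not tested.

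More initiation factor transcripts fell than rose after NSUN2 siRNA. Of the 49 members that passed the low-count filter, 23 were lower, 4 were higher and 22 did not pass the test (edgeR quasi-likelihood test, Benjamini-Hochberg adjusted p under 0.05 over 16889 genes). Over all genes tested, 25.5% were lower and 27.1% were higher. Nearly all members are abundant, and among the 9702 genes with an average log2 CPM above 3, which include 47 members and all called ones, 36.2% were lower and 36.5% were higher. The median log2 fold change (siNSUN2 over siControl) was −0.15 for the members and 0.03 for all genes tested. In 28 members both siNSUN2 libraries were below both siControl libraries, and in 9 both were above, where 36.0% and 38.6% of all genes tested did so. Of the 9702 abundant genes, 4225 were below and 4241 above in this way. The 3 members that did not pass the filter were EIF1AY, EIF4E1B and EIF4EBP3.

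**Figure D1:**
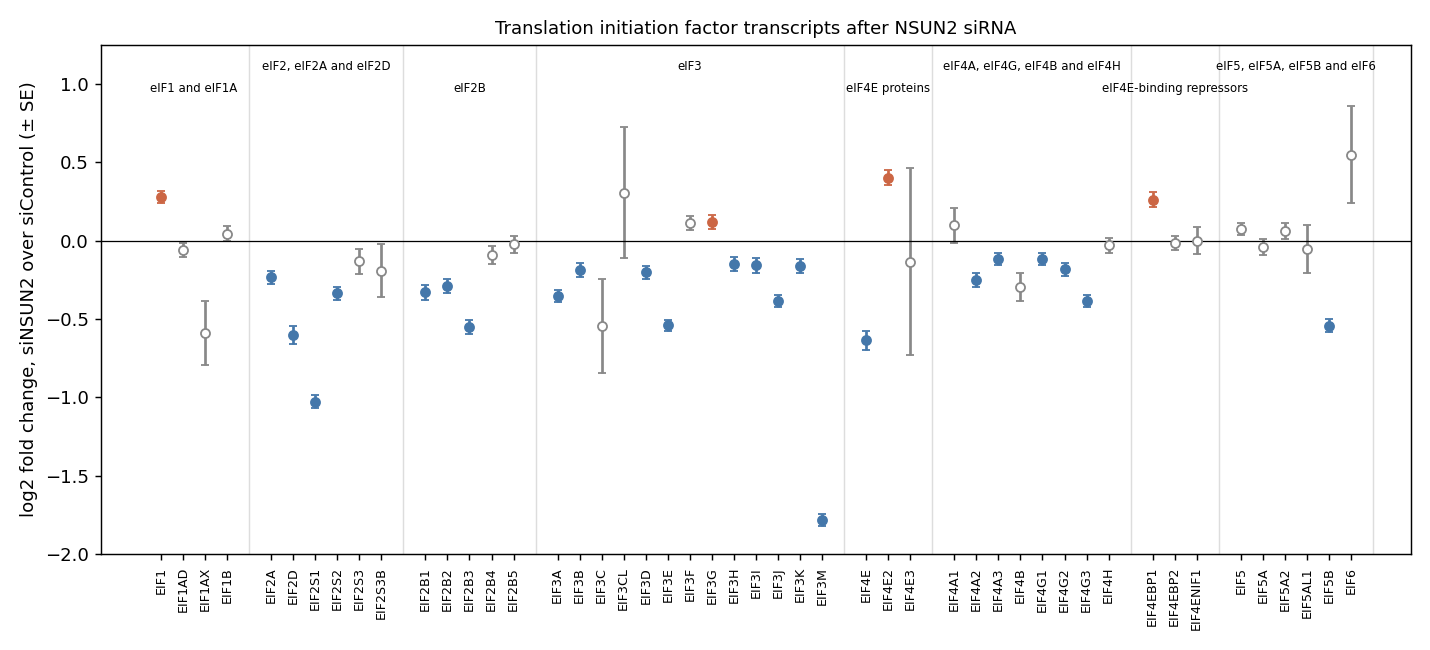
Log2 fold change of each tested initiation factor (siNSUN2 over siControl, y axis, ± SE, 2 libraries a group), grouped by role along the x axis; blue points passed the test as lower, red as higher, and open points did not pass. EIF3M at −1.78 and EIF2S1 at −1.03 lie lowest, and EIF3L is not drawn because its SE was 1.68, while the signs of EIF2A, EIF3H, EIF3G and EIF4EBP1 turn with GC and length offsets.

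GC content moved with the fold changes in these libraries. Abundant genes were split into 3 ranges of GC content with equally many genes. The lowest (27.8% to 43.2% in the longest coding transcript) held 3197 genes, with a median log2 fold change of −0.23. Of these 3197 genes, 58.0% were lower and 16.0% higher. In the highest range (52.8% to 73.9%), 11.2% were lower, 67.1% were higher and the median was 0.38. Members in the low range numbered 17, with 11 lower and 0 higher and a median of −0.25, and members in the high range numbered 9, with 2 lower and 2 higher and a median of −0.04. The 21 members between them had 10 lower and 2 higher and a median of −0.12, beside −0.07 for all genes of that range. With offsets for GC content and length fitted per library, 22 members were lower and 6 higher, beside 24.1% and 21.5% of all genes tested, and the members' median was −0.16. Of the 9702 abundant genes, 3287 were lower and 2910 higher with these offsets.

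**Figure D2:**
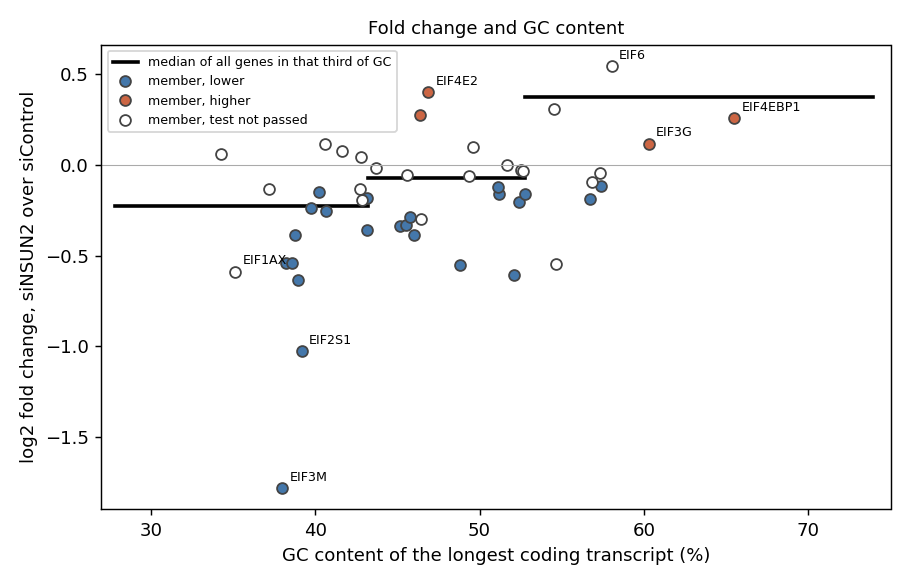
Log2 fold change (siNSUN2 over siControl, y axis) of each member against the GC content of its longest coding transcript (percent, x axis); black bars are the median of all abundant genes in each of 3 ranges of GC content that hold equally many genes, at −0.23, −0.07 and 0.38. EIF3M and EIF2S1 lie far below the bar of their range, and EIF4EBP1 and EIF3G, whose direction turns with GC and length offsets, lie in the highest range.

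Among the factors that act at the start codon, EIF1 was the member of its group that passed the test. EIF1, which guards start codon selection, stood at 607 and 622 CPM in siControl and at 749 and 741 CPM in siNSUN2, a rise of 0.28 on the log2 scale (SE 0.038, adjusted p = 2.27e-04). The groups did not overlap, and the change was 0.38 with GC and length offsets. EIF1AX, one of the genes encoding eIF1A, stood at 200, 256, 138 and 166 CPM in siControl 1, siControl 2, siNSUN2 1 and siNSUN2 2. Its groups did not overlap, and its log2 fold change of −0.59 had an SE of 0.21 and an adjusted p of 0.142. DESeq2 and limma-voom called the same difference, with adjusted p = 0.0191 and 0.0127. EIF1AD, which shares the eIF1A domain without being a known initiation factor, had a log2 fold change of −0.06 (adjusted p = 0.297), and EIF1B, a close relative of EIF1, lay between 39.5 and 41.5 CPM in all libraries. With GC and length offsets EIF1B passed as higher, at 0.19 (adjusted p = 0.0393).

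The eIF2 complex carries the initiator tRNA, and the transcript of its regulatory alpha subunit fell most in that group. EIF2S1 (ENSG00000134001, chromosome 14), which encodes the subunit phosphorylated in stress, stood at 285 and 297 CPM in siControl and at 145 and 140 CPM in siNSUN2. That is 291 ± 8.15 against 143 ± 3.27 CPM (mean ± SD, n = 2), a log2 change of −1.03 (SE 0.042, adjusted p = 1.44e-07), and −0.80 with GC and length offsets. EIF2S1 overlaps ATP6V1D, a gene on the other strand, over 4.8% of its exon bases. ATP6V1D stood at 101, 98.6, 35.1 and 33.9 CPM in the same libraries, and whether the counting used strand is not given in the sources used here.

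The beta subunit fell less and the gamma subunit did not pass the test. EIF2S2, which encodes eIF2 beta, stood at 632 and 644 CPM in siControl and at 511 and 500 CPM in siNSUN2, a log2 fold change of −0.34 (adjusted p = 6.44e-05). EIF2S3, which encodes the GTP-binding gamma subunit, stood at 258, 295, 261 and 243 CPM, and its groups overlapped (log2 fold change −0.13, adjusted p = 0.226). Without siControl 1 it passed at −0.29 (adjusted p = 7.18e-06), and with GC and length offsets it turned to 0.06. Its near-identical retrogene copy EIF2S3B lay between 6.28 and 8.80 CPM, and reads of such copies may be assigned to either gene. It passed at −0.44 only without siControl 2 (adjusted p = 0.0294) among the libraries left out. EIF2D, which delivers tRNA to the ribosome independently of eIF2, stood at 47.8 and 48.2 CPM in siControl and at 33.1 and 29.9 CPM in siNSUN2, a log2 change of −0.60 (SE 0.057, adjusted p = 1.99e-05). EIF2D also fell with GC and length offsets, to −0.68, although its GC content of 52.1% lies in the middle range. EIF2A, an alternative carrier of initiator tRNA, was lower by the test (log2 fold change −0.23, adjusted p = 0.0011) but stood at 0.008 with GC and length offsets.

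In eIF2B, the exchange factor that reloads eIF2 with GTP, 3 of 5 subunit transcripts were lower. EIF2B3, a subunit of the catalytic part, stood at 50.8 and 50.4 CPM in siControl and at 34.2 and 35.0 CPM in siNSUN2, with no overlap (log2 fold change −0.55, SE 0.046, adjusted p = 7.93e-06). EIF2B1, which encodes a regulatory subunit that senses phosphorylated eIF2, stood at 74.3 and 72.4 CPM against 60.5 and 56.1 CPM, a log2 fold change of −0.33 (adjusted p = 3.52e-04). Over 14.8% of its exon bases EIF2B1 overlaps DDX55, a gene on the other strand. DDX55 had 2870 and 14554 counts in siControl and 5094 and 1782 in siNSUN2, beside 3157, 15407, 5558 and 1922 for EIF2B1. EIF2B2 changed by −0.29 (adjusted p = 4.3e-04). EIF2B4, another regulatory subunit, lay between 39.9 and 45.2 CPM (log2 fold change −0.09, adjusted p = 0.204), and it passed at −0.34 with GC and length offsets and at −0.18 without siControl 2 (adjusted p = 0.0292). EIF2B5, the catalytic subunit itself, lay between 61.6 and 68.0 CPM with overlapping groups. The count ratio of EIF2S1 to EIF2B1 was 3.84 and 4.09 in siControl and 2.39 and 2.50 in siNSUN2. The ratio was not tested.

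**Figure D3:**
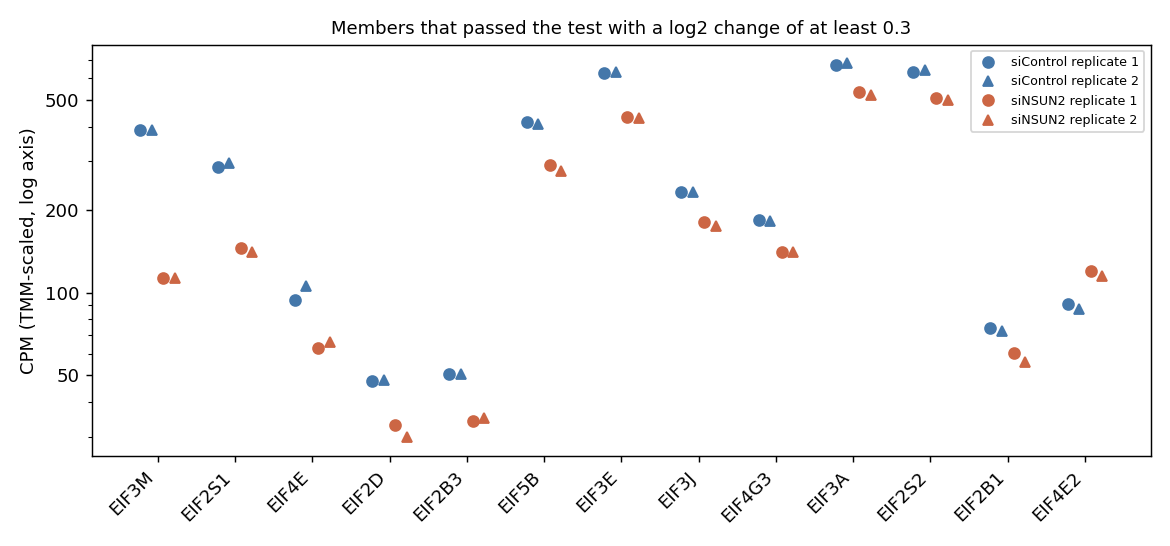
CPM (TMM-scaled, log y axis) in each library for the 13 members that passed the test with a log2 fold change of at least 0.3 in size, ordered by fold change; circles are replicate 1 and triangles replicate 2, blue is siControl and red siNSUN2. In 12 of them both red symbols lie below both blue ones, from EIF3M on the left, and EIF4E2 on the right is the reverse.

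In eIF3, the large complex that holds the initiation machinery together on the small subunit, 9 of 14 transcripts were lower, 1 was higher and 4 did not pass. EIF3M (ENSG00000149100, chromosome 11) had the largest fall of any initiation factor that passed the test. It stood at 389 CPM in both siControl libraries and at 113 CPM in both siNSUN2 libraries, a log2 change of −1.78 (SE 0.038, adjusted p = 1.24e-08), so that siNSUN2 cells kept 0.291 of the control level. With GC and length offsets the change was −1.55. CCDC73 overlaps EIF3M on the opposite strand over 10% of its exon bases, but stood at no more than 0.541 CPM in any library.

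EIF3E, EIF3J and EIF3A followed. EIF3E, which encodes a subunit of the outer part of the complex, stood at 626 and 633 CPM in siControl and at 435 and 431 CPM in siNSUN2, a log2 change of −0.54 (SE 0.037, adjusted p = 2.6e-06). EIF3J, a loosely bound subunit, stood at 232 CPM in both siControl libraries and at 180 and 175 CPM in siNSUN2 (log2 fold change −0.39, adjusted p = 2.74e-05). EIF3A, the scaffold subunit, stood at 669 and 681 CPM against 534 and 522 CPM (log2 fold change −0.36, adjusted p = 4.59e-05). In none of these did the groups overlap, and with GC and length offsets their changes were −0.29, −0.13 and −0.23.

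Smaller differences passed the test in the remaining eIF3 subunits. EIF3D, which can bind the cap of selected mRNAs, fell by 0.20 on the log2 scale, EIF3B, a core subunit, by 0.19, EIF3K by 0.16 and EIF3I, a partner of EIF3B, by 0.16 (adjusted p from 0.00272 to 0.024). EIF3I had an adjusted p of 0.067 with GC and length offsets, and of 0.0838, 0.194 and 0.13 without siControl 2, siNSUN2 1 or siNSUN2 2, while EIF3K had 0.0572 without siNSUN2 2. EIF3H was lower by 0.15 (adjusted p = 0.0184), but stood at 0.07 with those offsets and had an adjusted p of 0.0804 without siNSUN2 2. EIF3G, an RNA-binding subunit, was higher by 0.12 (adjusted p = 0.0434) and turned to −0.23 (adjusted p = 0.00412) with the offsets. EIF3G also missed the threshold without siControl 1 (0.01, adjusted p = 0.867), siNSUN2 1 (0.0935) or siNSUN2 2 (0.0716). EIF3F stood at 254, 262, 288 and 270 CPM, with groups that did not overlap and an adjusted p of 0.0567. It passed at 0.27 with the offsets (adjusted p = 0.00116) and at 0.17 without siNSUN2 2 (adjusted p = 0.0127).

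Levels per kb were compared within eIF3. EIF3C, EIF3CL and EIF3L, which are taken up below, were left out. Divided by the length of the longest coding transcript, EIF3E was the most abundant of the other 11 subunits, at 408 CPM per kb in siControl and 281 in siNSUN2. EIF3I followed at 242 and 217 CPM per kb. EIF3G, EIF3D, EIF3B, EIF3A, EIF3K, EIF3J, EIF3H and EIF3M lay between 77.1 and 123 CPM per kb in siControl, with EIF3F last at 34.2 CPM per kb. In siNSUN2 EIF3M dropped to 22.4 CPM per kb, below EIF3F at 37.0 CPM per kb. These levels rest on the longest annotated coding transcripts, of 7540 bases for EIF3F, 6646 for EIF3A and 5051 for EIF3M, so the places of these subunits in the order depend on that length.

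EIF3C, EIF3CL and EIF3L could not be measured well. EIF3C, a core subunit, stood at 40.0, 54.1, 27.4 and 37.7 CPM, and its near-identical copy EIF3CL at 39.8, 64.3, 53.6 and 77.0 CPM. Their sum was 79.8 and 118 CPM in siControl and 81.0 and 115 CPM in siNSUN2, so that the groups overlapped, while the share of EIF3CL in the sum was 49.9% and 54.3% in siControl and 66.1% and 67.1% in siNSUN2. The groups of EIF3C alone did not overlap, and EIF3C had an adjusted p of 0.285 by edgeR and of 0.0248 by limma-voom. EIF3L had 195 and 4626 counts in siControl and 3988 and 157 in siNSUN2, or 4.59, 21.7, 43.4 and 4.59 CPM. The replicates of EIF3L differed by over 4-fold in both groups, as did those of 13 of 10388 genes with a mean of at least 5 CPM (0.125%). Among these 13, 7 were higher in the deeper library of each group, EIF3L included. Over 41.1% of its exon bases EIF3L overlaps AL022311.1 on the same strand, a gene that is not among those counted. No direction is given for EIF3L.

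**Figure D4:**
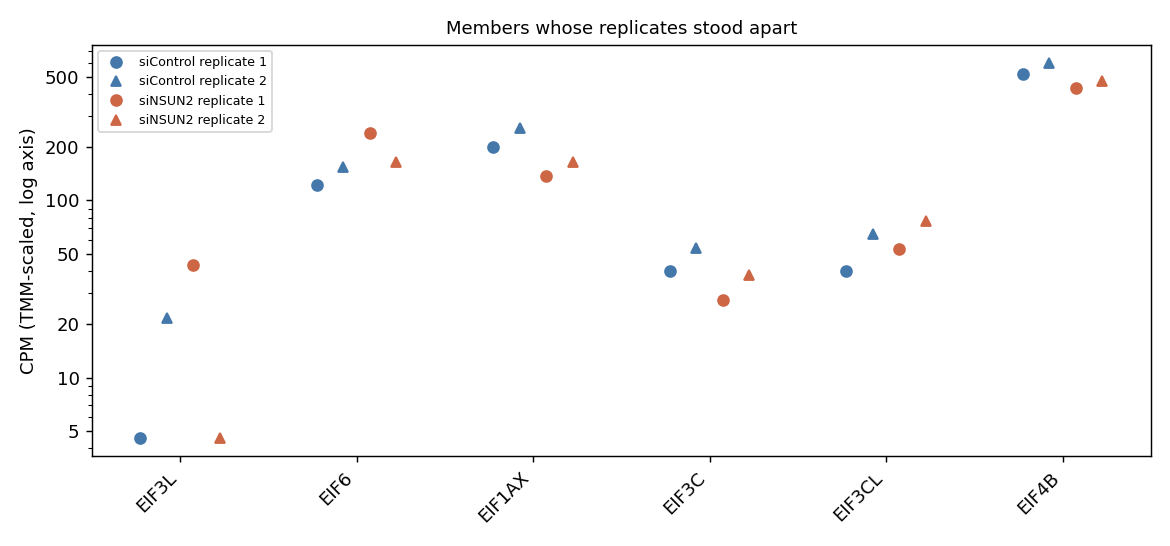
CPM (TMM-scaled, log y axis) in each library for 6 members whose replicates stood apart; circles are replicate 1 and triangles replicate 2, blue is siControl and red siNSUN2. The EIF3L values of 4.59 CPM in siControl 1 and siNSUN2 2 lie far below the other pair. The groups of EIF1AX, EIF6, EIF3C and EIF4B do not overlap although none passed the test. EIF2S3B and EIF5AL1, whose siControl replicates differed by 1.39-fold and 1.33-fold, are not drawn, while those of EIF4B differed by 1.15-fold.

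At the cap, the transcripts of both main eIF4E family members changed, in opposite directions. EIF4E (ENSG00000151247, chromosome 4), which encodes the cap-binding factor, stood at 94.4 and 106 CPM in siControl and at 63.2 and 65.9 CPM in siNSUN2. Its mean fell from 100 ± 7.99 to 64.5 ± 1.94 CPM (SD, n = 2), a log2 change of −0.64 (SE 0.060, adjusted p = 4.66e-05), and −0.50 with GC and length offsets. EIF4E2 (ENSG00000135930, chromosome 2), a relative that binds the cap without eIF4G and represses translation, stood at 91.1 and 86.8 CPM in siControl and at 120 and 115 CPM in siNSUN2. Its log2 fold change was 0.40 (SE 0.045, adjusted p = 5.54e-05), and 0.48 with the offsets.

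The groups overlapped in neither gene. The count ratio of EIF4E to EIF4E2 within a library, from which library size cancels, was 1.04 and 1.22 in siControl and 0.527 and 0.572 in siNSUN2, a log2 difference of −1.03, and −0.98 with the offsets. EIF4E3, another cap-binding relative, lay near 0.2 CPM in all libraries.

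Among the partners of eIF4E, the scaffold EIF4G3 fell most. EIF4G3 stood at 184 and 182 CPM in siControl and at 140 CPM in both siNSUN2 libraries, a log2 change of −0.38 (SE 0.038, adjusted p = 2.76e-05) and −0.32 with the offsets. EIF4G1, the main scaffold, stood at 773 and 765 CPM against 726 and 692 CPM, a log2 fold change of −0.12 (adjusted p = 0.0387). That call was lost without siNSUN2 2 (−0.07, adjusted p = 0.116), and the change was −0.45 with GC and length offsets. The count ratio of EIF4G1 to EIF4G3 was 4.203 and 4.204 in siControl and 5.17 and 4.95 in siNSUN2, a log2 difference of 0.27 that turned to −0.13 with the offsets. EIF4G2, a scaffold that lacks the eIF4E-binding region, stood at 1604 and 1591 CPM against 1434 and 1380 CPM, a log2 fold change of −0.18 (adjusted p = 0.00436) that was −0.02 with the offsets (adjusted p = 0.729).

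Of the helicase genes and their cofactors, EIF4A2 and EIF4A3 were lower. EIF4A2, an eIF4A paralog, stood at 340 and 347 CPM in siControl and at 296 and 281 CPM in siNSUN2, a log2 fold change of −0.25 (adjusted p = 7.43e-04) that was −0.03 with the offsets (adjusted p = 0.634). EIF4A3 fell by 0.12 (adjusted p = 0.032) and had an adjusted p of 0.069 without siNSUN2 2. EIF4B, which stimulates the helicase, stood at 517 and 595 CPM against 431 and 473 CPM. Its log2 fold change of −0.30 narrowly missed the threshold (adjusted p = 0.0509, and 0.0311 by DESeq2) and was −0.46 without siControl 1 (adjusted p = 1.38e-05). EIF4H, its relative, stood at 392, 431, 398 and 409 CPM with overlapping groups. EIF4A1, the main helicase, had 7.41, 8.15, 8.93 and 7.71 CPM, and its pseudogene EIF4A1P10 had 22.5, 19.9, 15.9 and 15.3 CPM. EIF4A1 shares 41.1% of its exon bases with AC016876.2 and 29.8% with SENP3-EIF4A1 on the same strand. AC016876.2 held 0, 10, 0 and 1 counts, and SENP3-EIF4A1 is not among the genes counted. The level of EIF4A1 is uncertain for reasons that were not tested, and no direction is given.

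Of the 3 tested proteins that bind and restrain eIF4E, EIF4EBP1 passed the test. EIF4EBP1, the mTORC1-regulated repressor, stood at 38.1 and 39.7 CPM in siControl and at 46.8 and 46.5 CPM in siNSUN2, a log2 fold change of 0.26 (adjusted p = 0.00117) that turned to −0.30 with GC and length offsets (adjusted p = 0.0013). Its transcript holds 65.5% GC. The count ratio of EIF4EBP1 to EIF4E was 0.403 and 0.376 in siControl and 0.741 and 0.706 in siNSUN2, a log2 difference of 0.89 that was 0.20 with the offsets. EIF4EBP2, its paralog, lay between 87.7 and 91.7 CPM in all libraries, and EIF4ENIF1, which carries eIF4E into the nucleus and into P-bodies, between 28.2 and 33.6 CPM.

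At subunit joining, EIF5B was lower and the rest of that group did not pass. EIF5B, the GTPase that joins the large subunit, stood at 417 and 410 CPM in siControl and at 291 and 277 CPM in siNSUN2, a log2 change of −0.54 (SE 0.041, adjusted p = 4.79e-06), and −0.33 with the offsets. EIF5, which triggers GTP hydrolysis by eIF2, stood at 487, 499, 522 and 518 CPM (log2 fold change 0.08, adjusted p = 0.124) and passed at 0.24 with the offsets. EIF5A, which is modified by hypusine, lay between 1011 and 1111 CPM with overlapping groups, and with the offsets it passed as lower, at −0.29 (adjusted p = 0.00282). EIF5A had the highest level per kb of the members, at 702 CPM per kb in siControl and 682 in siNSUN2. EIF5A2, its less abundant paralog, had a log2 fold change of 0.06 (adjusted p = 0.376) and passed at 0.32 with the offsets, and the copy EIF5AL1 lay between 15.9 and 21.1 CPM. EIF6 stood at 123 and 154 CPM in siControl and at 241 and 164 CPM in siNSUN2. The groups of EIF6 did not overlap, yet the log2 fold change of 0.55 had an SE of 0.31 and an adjusted p of 0.299.

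The pyrimidine start and the fold changes of the members were set side by side. Of the 10 members with such a start, 6 were lower and 0 higher, with a median log2 fold change of −0.22. Of the 31 other tested members with a listed start, 13 were lower and 2 higher, with a median of −0.12. Among all 760 tested coding genes with such a start, 250 were lower and 261 higher, with a median of 0.03. EIF3F and EIF3D carry the longest runs, of 10 bases each, and EIF3F did not pass while EIF3D fell by 0.20.

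The word ACCCTA, which an earlier search of these same data had picked out and which therefore is no independent evidence, was looked for on the transcript strand of the longest 3′ UTR and coding sequence of each gene. It lay in the 3′ UTR of 21.4% of 12439 tested coding genes, with a median log2 fold change of −0.16 there and 0.09 in the others. Of 9 tested members with it in the 3′ UTR, 2 were lower and 1 higher, with a median of −0.09. Among all genes with it there, 44.75% were lower and 22.9% higher. Of 7 members with it in the coding sequence only, 4 were lower and 1 higher, beside 41.9% and 25.5% of all such genes. Of 33 members with it in neither region, 17 were lower and 2 higher, with a median of −0.16. All tested coding genes with it in neither region had 23.8% lower and 39.0% higher, with a median of 0.12. EIF3M and EIF4E had it in neither region. Its 3′ UTR sites in EIF2S1, the carrier with the largest fall, and in EIF1, the carrier that rose, are shown with 12 bases on each side and the word in capitals (GRCh38).
EIF2S1, chr14:67383899-67383928, plus strand: tttaatactaagACCCTAattcttttatct
EIF2S1, chr14:67385099-67385128, plus strand: ttttgtaaattgACCCTAgccagagaatag
EIF1, chr17:41691158-41691187, plus strand: gcagagttccctACCCTAagagaatgttac

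Genes that work beside the initiation factors were taken from 6 lists, whose counts are to be read beside the 25.5% lower and 27.1% higher of all genes tested, or the 36.2% and 36.5% of abundant genes. Over the 6 lists, 9 of 23 genes called higher and 2 of 27 called lower changed sign with GC and length offsets. Of 18 initiation partners, 10 were lower, 2 higher and 6 did not pass, with a median log2 fold change of −0.20, and 9 were lower and 5 higher with the offsets. DHX29, a helicase needed for structured 5′ leaders, stood at 142 CPM in both siControl libraries and at 62.2 and 59.2 CPM in siNSUN2, a log2 fold change of −1.22 (adjusted p = 8.49e-08). ABCE1, which splits ribosomes for reuse, stood at 278 and 277 CPM against 156 and 153 CPM (log2 fold change −0.85, adjusted p = 2.46e-07). NCBP1, a subunit of the nuclear cap-binding complex, stood at 213 and 212 CPM against 126 and 117 CPM (log2 fold change −0.81, adjusted p = 8.08e-07). In each of these the groups did not overlap, and the changes of DHX29, ABCE1 and NCBP1 were −1.02, −0.60 and −0.63 with GC and length offsets.

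Of 13 eIF2 kinases, phosphatase subunits and their regulators, 6 were lower and 5 higher, and 7 were lower and 5 higher with GC and length offsets. EIF2AK4 (GCN2), the kinase that senses uncharged tRNA, stood at 134 and 131 CPM in siControl and at 52.2 and 53.1 CPM in siNSUN2, a log2 change of −1.33 (SE 0.042, adjusted p = 4.56e-08). PPP1R15A (GADD34), the stress-induced subunit that directs phosphatase to eIF2, stood at 91.3 and 93.0 CPM against 238 and 223 CPM, a log2 change of 1.32 (SE 0.045, adjusted p = 7.27e-08). PPP1CA, a catalytic subunit of that phosphatase, rose by 0.59 (adjusted p = 2.45e-06). The other catalytic subunits, PPP1CB and PPP1CC, named after their values were seen, went both ways. PPP1CB rose by 0.24 (adjusted p = 0.0482) and PPP1CC fell by 0.43 (adjusted p = 1.44e-05), with 0.50 and −0.20 with the offsets. With GC and length offsets EIF2AK4, PPP1R15A and PPP1CA stood at −1.29, 0.97 and 0.20. The other eIF2 kinases, named after their values were seen, fell as well: EIF2AK3 (PERK) by 0.50, EIF2AK1 (HRI) by 0.30 and EIF2AK2 (PKR) by 0.28 on the log2 scale.

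Of 15 genes of mTORC1 and the MNK kinases, which act on the 4E-binding proteins and on eIF4E, 10 were higher and 4 lower, with a median of 0.27. With GC and length offsets 6 were higher and 2 lower, with a median of 0.04, and MTOR, RPTOR and AKT1S1 changed from higher to values below 0 that did not pass. TSC2 and TSC1, the complex that restrains mTORC1, rose by 0.71 and 0.65 on the log2 scale (adjusted p = 1.05e-06 and 1.61e-06), and by 0.24 and 0.60 with the offsets. RPS6KB2, an S6 kinase, rose by 0.58 (adjusted p = 6.54e-06) but had 0.09 with the offsets (adjusted p = 0.131). MKNK2, a kinase that phosphorylates eIF4E and that is named after its values were seen, stood at 57.7 and 67.2 CPM in siControl and at 200 and 219 CPM in siNSUN2. Its log2 fold change was 1.74 (adjusted p = 1.81e-04), and 1.21 with the offsets. The 4 lower genes, also named after their values were seen, were DEPTOR at −1.33, RPS6KB1 at −0.30, MLST8 at −0.27 and RPS6KA3 at −0.17. With the offsets DEPTOR, RPS6KB1, MLST8 and RPS6KA3 stood at −1.20, −0.08, −0.85 and −0.01. DEPTOR was scarce, at 1.77 and 1.52 CPM in siControl and 0.75 and 0.53 CPM in siNSUN2.

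The remaining lists cover later steps, the eIF5A modification and mitochondria. Of 12 tested elongation and release factors, 4 were lower and 3 higher, with a median of −0.03, but with GC and length offsets 5 were lower and 0 higher, with a median of −0.15. The 3 called higher, EEF1A2, EEF1D and EEF2, all turned to lower calls with the offsets. The release factor GSPT1 changed by −0.46 (adjusted p = 1.51e-05) and the eEF2 kinase EEF2K by −0.51 (adjusted p = 1.51e-04), while EEF1A2, a tissue-specific form of the tRNA-delivering factor eEF1A, had 0.35 (adjusted p = 1.19e-04) and −0.35 with the offsets. Of 6 genes that make hypusine or its polyamine precursors, 3 were higher and 2 lower, and 1 was higher and 3 lower with the offsets. SRM, which makes spermidine and is named after its values were seen, had 0.13 (adjusted p = 0.0463) that turned to −0.39 with the offsets (adjusted p = 1.68e-04). AMD1, which makes the aminopropyl donor, changed by −0.48 (adjusted p = 7.88e-06), ODC1, the first enzyme of polyamine synthesis, by 0.22 (adjusted p = 0.00154), and the hypusine hydroxylase DOHH by 0.66 (adjusted p = 2.36e-05), which turned to −0.09 with the offsets. The mitochondrial initiation factor MTIF2 changed by −0.39 (adjusted p = 7.15e-05), and MTIF3 did not pass.

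**Figure D5:**
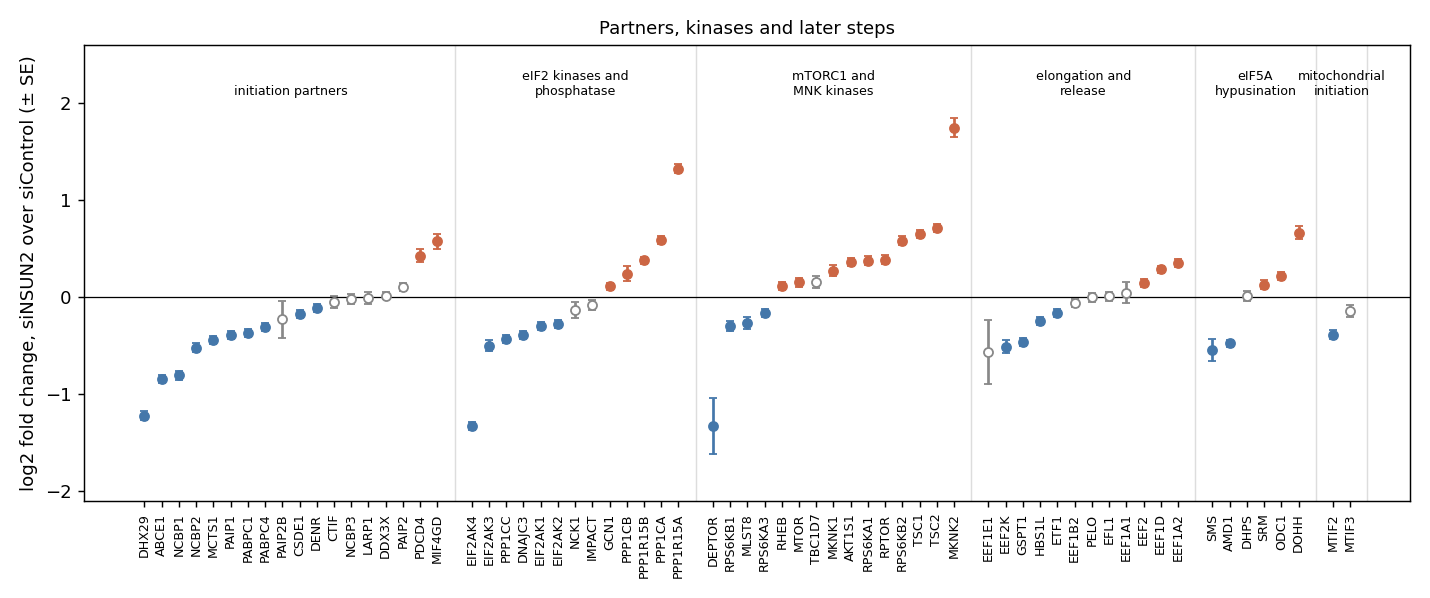
Log2 fold change (siNSUN2 over siControl, y axis, ± SE, 2 libraries a group) of the tested genes of the 6 lists, ordered within each list along the x axis; blue points passed the test as lower, red as higher, and open points did not pass. EIF2AK4 at −1.33 and PPP1R15A at 1.32 lie at the ends of the eIF2 kinase and phosphatase list, and 9 of the 23 red points, EEF1A2, EEF1D, EEF2, DOHH, SRM, GCN1, MTOR, RPTOR and AKT1S1, turn below 0 with GC and length offsets.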

How the data were processed

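The counts are whole numbers of reads per Ensembl gene, as the authors deposited them in a single table. They were made with HISAT2 and HTSeq on hg19, per the submitters' processing notes. The sources used here do not give versions, annotation or strand setting, so reads of overlapping genes may be lost or assigned to either. Further called members overlap genes on the other strand, among them EIF5B with REV1 (10.8% of exon bases). EIF4E2 does so with AC073254.1 (16.6%) and TIGD1 (7.5%). Per the labels' protocols, a stranded mRNA kit was used. Sample titles gave the groups and replicates.

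All 62893 genes entered 1 fit of edgeR 4.0.16 in R 4.3.3: TMM factors, filterByExpr by group (16889 genes tested), robust quasi-likelihood F-test, two-sided, Benjamini-Hochberg threshold 0.05. Counts were also simulated (16244 genes), with the same spread between replicates for every gene, a coefficient of variation of 0.14. The share of changed genes found was 12.3% at 1.5-fold, 66.7% at 2-fold and 97.2% at 4-fold, with 7 false calls. In the data, replicates of genes with a mean of at least 5 CPM differed by a median of 1.03-fold in siControl and 1.05-fold in siNSUN2. These shares therefore do not describe the abundant members, and small changes can still be missed. Symbols, GC content, lengths, 3′ UTRs and overlaps came from GENCODE release 29 (GRCh38), matched by gene ID, and start sites from RefSeq GRCh38.p14. GC and length offsets were loess fits (span 0.3) of log counts per library. Alternatives included DESeq2 1.42.0, limma-voom (limma 3.58.1), other scalings and filters, thinning, a replicate block and each library left out.

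The members and lists were chosen with earlier results of these data known. Each library is given for members past the threshold with a log2 change of at least 0.3 and for paralog pairs, and others more briefly. Pathway lists are represented by the 3 called genes with the smallest p.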

Additional observations from a re-analysis of the deposited data

How the results depend on the processing

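The counts of members called, 4 higher and 23 lower, stayed within 1.5 times under the other scalings, filters and tools tried, with these exceptions. Against a minimum fold of 1.2, which is a stricter test, 1 was higher and 11 lower. With genes that hold ACCCTA in the 3′ UTR left out, which leaves 40 members tested, 2 were higher. Leaving out 1 library at a time gave 3 to 4 higher and 18 to 27 lower. A replicate block gave 6 higher and 27 lower, and a block with GC and length offsets 7 higher and 28 lower. In edgeR with the block alone, EIF1AX, EIF3C, EIF4B and EIF2S3 also passed as lower (adjusted p = 9.03e-39, 5.86e-23, 1.79e-11 and 0.00656). EIF3F passed as higher there (adjusted p = 0.0169). With block and offsets EIF1AX, EIF3C and EIF4B passed as lower and EIF3F as higher, and EIF2S3 did not pass. The calls of these members therefore depend on whether replicate numbers are treated as pairs. Deviations of libraries with the same replicate number correlated at 0.0878 over 9661 genes, and nothing in the labels pairs them, so the block is no better fit to the design. Of the 27 called members, 12 kept their direction and call in every alternative they entered (EIF2S1, which holds ACCCTA in its 3′ UTR, was left out with the other such genes): EIF2B3, EIF2D, EIF2S1, EIF2S2, EIF3A, EIF3E, EIF3J, EIF3M, EIF4E, EIF4E2, EIF4G3 and EIF5B. EIF3M ranged from −1.85 to −1.55 on the log2 scale, EIF2S1 from −1.12 to −0.80, EIF4E from −0.78 to −0.50 and EIF4E2 from 0.34 to 0.48.

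Directions turned mainly with GC and length offsets, without and with a replicate block: EIF2A to 0.008 and 0.0076, EIF2S3 to 0.0558 and 0.059, EIF3G to −0.2327 and −0.2309, EIF3H to 0.0662 and 0.0653, EIF4EBP1 to −0.297 and −0.2951, EEF1A2 to −0.3471 and −0.347, and DOHH to −0.0877 and −0.0871. EIF2S3B turned to 0.0031 with block and offsets and to 0.0002 in limma-voom. Without siControl 1, which shifted the median of all genes by −0.067, EIF5 turned to −0.0073 (its highest value with a library left out was 0.0921) and EIF5A2 to −0.0217 (highest 0.0883), and EIF5A2 to −0.007 without the ACCCTA genes, which shifted it by −0.068. The causes were not tested. The shallowest library makes 1 count worth 0.0297 CPM, so depth limits EIF4E3 and the 3 untested members. In the main fit, which has no block, agreement between replicates limits EIF3L, EIF1AX and EIF6.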

Other observations

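Of 48 members with a mean of at least 5 CPM, 7 (14.6%) differed over 1.2-fold between the replicates of either group, beside 740 of 10388 genes tested (7.12%), a difference that was not tested. The table also lists 79 pseudogenes of initiation factors, which were not counted as members. EIF1AXP1, a processed copy of EIF1AX, stood at 19.3, 10.3, 13.1 and 12.5 CPM in siControl 1, siControl 2, siNSUN2 1 and siNSUN2 2, an order that differs from that of EIF1AX itself. EEF1G, a subunit of the elongation factor complex, was listed at 0 in all but siNSUN2 2, where it stood at 0.0292 CPM. All cells use this gene, so this value is not taken as its expression.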
